A study of Mus musculus with 149 samples.

Results

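Mt1, Mt2 and Slc39a14 are 3 of the 20308 mouse genes in a table of 149 single liver cells. They were chosen by name, with earlier results of these data known. All cells came from 1 wild-type male C57BL/6 mouse of 8 weeks whose liver was perfused and digested and whose hepatocytes were enriched by slow spins. The cells were caught on Fluidigm C1 chips of 3 trap sizes, with 39 cells on the small chip (5 to 10 µm), 30 on the medium chip (10 to 17 µm) and 80 on the large chip (17 to 25 µm). ERCC spike-in RNA, a synthetic standard, was added with the lysis mix. No treatment was compared, the title names the position of cells in the liver lobule as the subject, and 1 mouse on 1 chip of each size leaves cells without replicates, so differences are given as descriptions with no p-value.

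Metallothioneins are small cysteine-rich proteins that bind zinc and copper in the cytosol. Their genes are switched on by the zinc-sensing factor MTF1, which binds metal response elements in their promoters, and also by glucocorticoids and by interleukin-6 in the acute phase response. Slc39a14, also called Zip14, is a plasma membrane importer of zinc, manganese and iron that hepatocytes make in greater amount during inflammation. In the liver lobule blood flows past periportal hepatocytes first and pericentral hepatocytes last, and many genes are expressed in a gradient between them.

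Mt1 lies on the plus strand of mouse chromosome 8 at 94179082 to 94180327, and Mt2 lies 5513 bases upstream of it on the same strand, at 94172664 to 94173568 (mm10, GENCODE annotation). Slc39a14 lies on the minus strand of chromosome 14 at 70303469 to 70351425. Transcripts of Mt1 and Mt2 have 3 exons each and span 549 and 511 bases, and that of Slc39a14 has 10 exons and 4926 bases. The coding sequences of Mt1 and Mt2 are identical at 145 of 183 bases (79.2%). None of the 514 stretches of 36 bases in Mt1, none of the 476 in Mt2 and 59 of the 4891 in Slc39a14 (1.21%) occurred in the transcripts of another gene, although the read length is not given in the sources used here.

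The promoters of Mt1 and Mt2 are shown because both genes varied together over cells. Each sequence runs 5′ to 3′ from 250 bases before to 30 bases after the start that RefSeq annotates (GRCm38.p6, plus strand, chr8:94178839-94179118 for Mt1 and chr8:94172368-94172647 for Mt2), and capitals mark the cores of metal response elements, TGCACNC or TGCGCNC, on either strand.
Mt1: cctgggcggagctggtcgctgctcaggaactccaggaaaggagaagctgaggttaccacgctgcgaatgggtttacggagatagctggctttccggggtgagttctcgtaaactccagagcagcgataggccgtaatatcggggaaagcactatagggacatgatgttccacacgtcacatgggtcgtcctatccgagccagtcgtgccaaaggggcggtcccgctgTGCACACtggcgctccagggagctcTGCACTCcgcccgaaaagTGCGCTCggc
Mt2: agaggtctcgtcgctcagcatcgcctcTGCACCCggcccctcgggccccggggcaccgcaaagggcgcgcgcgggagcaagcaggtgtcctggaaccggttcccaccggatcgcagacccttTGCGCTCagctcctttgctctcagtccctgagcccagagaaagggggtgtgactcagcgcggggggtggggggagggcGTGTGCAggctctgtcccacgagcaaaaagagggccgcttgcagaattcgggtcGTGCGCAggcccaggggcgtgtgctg
The Mt1 window held 3 cores, 2 of the form TGCACNC and 1 of the form TGCGCNC, and the Mt2 window held 4, 2 of each form. Counted in bases before the annotated start, the Mt1 cores began at 23, -2 and -20 and the Mt2 cores at 223, 128, 50 and -4. A minus sign lies past that start, and the counts hold for these windows only. TGCACNC was found in 11.7% and TGCGCNC in 14.4% of 32851 promoter windows of the same length. At least 1 core of either form was found in 24.1% of windows, at least 3 in 1.73% and at least 4 in 0.405%. The letters TTCNNNGAA, the core that STAT factors bind, were in neither window and in 7.83% of all windows. The start that these cells used was not read. The promoter of Slc39a14 is named only.

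The cells differed in how much of their summed values was spike-in RNA. The spike-in share was under 10% in 65 cells (highest 6.69%), from 10 to 50% in 18 cells (lowest 20.1%) and 50% or more in 66 cells. Its median was 82.8% on the small chip, 82.7% on the medium chip and 3.66% on the large chip, and the median number of mouse genes above 0 was 3087, 2306.5 and 7389.5 on those chips. The median summed value of a cell, spike-ins included, was 5539880, 5678140 and 1817210 on those chips, so cells were not on one scale. All cells carried hepatocyte markers, with 6 to 8 of 8 listed genes at 10 or more. In 19 cells at least 3 markers of another cell type also reached 10, and in each of these 6 to 8 hepatocyte markers did too. Endothelial markers did so in 9 cells (summed value 122 to 47263, against a median of 0 in the other 140), Kupffer cell markers in 5, cholangiocyte markers in 3 and stellate cell markers in 2. Hepatocyte markers had the larger sum in most of the 19 cells, but not in all. Cell 1 of the small chip had 80881 for Kupffer and 2969 for hepatocyte markers. Cells 4 and 1 of the medium chip had 60567 and 40315 for Kupffer markers, against 21959 and 25794 for hepatocyte markers. Cells 7 and 64 of the large chip had 47263 and 43165 for endothelial markers, against 23673 and 24018.5 for hepatocyte markers. In cell 39 of the small chip these sums were 27590 and 21309.

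Among the 9 cells with endothelial markers were 2 of the 4 highest Mt1 values of the large chip, 3210.72 in cell 7 and 2914.32 in cell 64, which had Slc39a14 at 3.29 and 9.02. The 3 cells with cholangiocyte markers had Slc39a14 at 62.6, 421 and 695, and the last of them, cell 71 of the large chip, had the highest Mt2 of all cells (1333.92). In the 5 cells with Kupffer markers, all on the small and medium chips, Mt2 was at 0 and Slc39a14 was at 0 in 4, while Mt1 ran from 1.37 to 2044.73. Large-chip cells 7, 64, 71 and 24, the last with Slc39a14 at 421, had summed mouse values of 3533910, 3756260, 3564550 and 3903320. The median was 1756620 in large-chip cells with a spike-in share under 10%, so these cells are on a larger scale. The part of that scale and of other cells' RNA in these values was not tested.

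All 3 genes had their highest median and were above 0 in the largest share of cells on the large chip, while the highest single value and the highest mean of Slc39a14 were on the small chip. Mt1, the most abundant of the 3, was lowest at 0, median 13.6 and highest at 1617.52 on the small chip, 0, 226 and 2044.73 on the medium chip, and 48.05, 694 and 3322.15 on the large chip. It was above 0 in 74.4% of small-chip cells (29 of 39, with an exact 95% interval of 57.9 to 86.96), in 90% of medium-chip cells (27 of 30, interval 73.5 to 97.9) and in all 80 large-chip cells (interval from 95.5% upward). The ranges overlapped widely, and no large-chip cell was without Mt1. Intervals cover counting error only.

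Mt2 ran from 0 to 247.22 on the small chip, from 0 to 167.56 on the medium chip and from 0 to 1333.92 on the large chip, with medians of 0, 0 and 97.8. It was above 0 in 11 small-chip cells (28.2%, interval from 15.001 to 44.9), 13 medium-chip cells (43.3%, 25.5 to 62.6) and 68 large-chip cells (85%, 75.3 to 92.0). Most cells on the small and medium chips were thus listed at 0 for Mt2. Slc39a14 ran from 0 to 5999.22 on the small chip, from 0 to 308.65 on the medium chip and from 0 to 694.53 on the large chip, with medians of 2.97, 1.485 and 42.8. It was above 0 in 22 (56.4%), 15 (50.0%) and 75 cells (93.75%) of those chips. The value of 5999.22 came from cell 25 of the small chip, against 389 in the next highest cell of that chip. Mt3 and Mt4, the other metallothioneins listed, were at 0 in all 149 cells.

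Per kilobase of transcript, the scale on which levels of different genes can be set side by side, the large-chip medians were 1264 for Mt1, 191 for Mt2 and 8.70 for Slc39a14. The log2 ratio of mean values between the small and the large chip was -2.42 for Mt1 and -2.47 for Mt2, at means of 146 and 19.9 on the small chip and 790 and 115 on the large chip. For Slc39a14 it was 1.53, at 184 on the small chip and 62.8 on the large chip, and -1.01 without cell 25. Between the medium and the large chip it was -0.61 for Mt1, -2.00 for Mt2 and -0.47 for Slc39a14. Ratios of -1 or lower were found for 41.9% of 8813 genes between the small and the large chip and for 37.5% between the medium and the large chip, so the lower metallothionein means were shared by a large part of all genes.

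**Figure D1:**
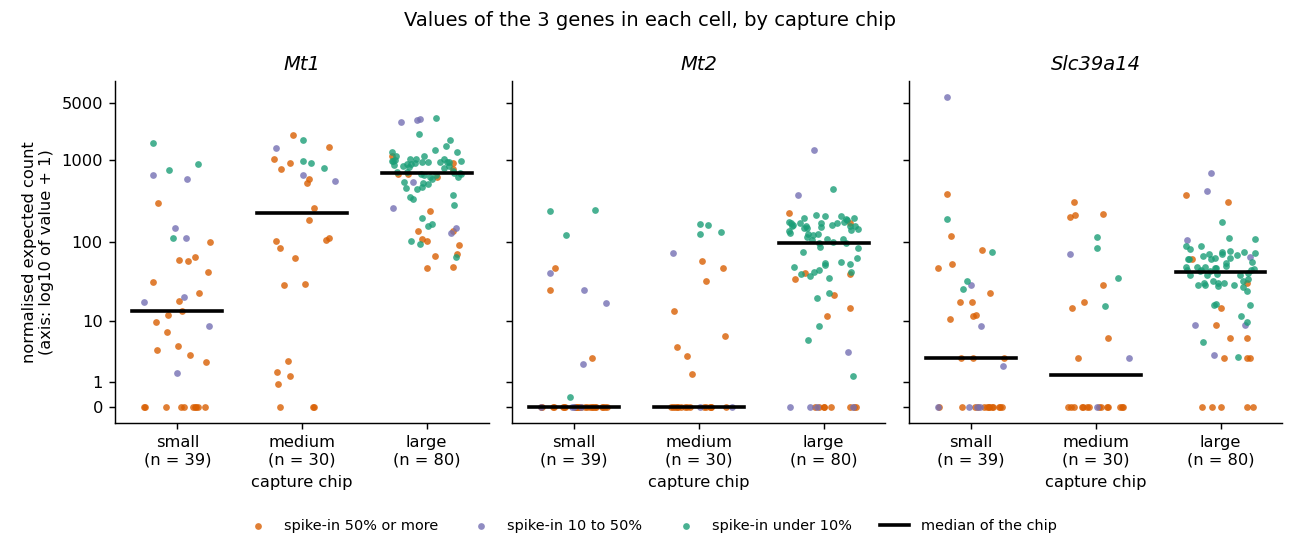
Normalised expected count of Mt1, Mt2 and Slc39a14 in each of 149 cells (y axis on a log10 scale of value + 1), by capture chip, with colours for the spike-in share and black bars for the median of each chip. The ranges of cells under 10% overlap between chips, and the small and medium chips hold most of the cells at 0.

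Within each chip the 3 genes were lower in cells with more spike-in RNA. On the small chip Mt1 had a mean of 28.3 in the 27 cells at 50% or more and 412 in the 12 cells under 50%, Mt2 had means of 2.86 and 58.3, and Slc39a14 of 29.3 and 531, the last resting on cell 25. On the medium chip the mean of Mt1 was 365 in 23 cells at 50% or more and 1018 in 7 cells under 50%. Mt2 had means of 7.39 and 95.3 in these groups, and Slc39a14 of 44.4 and 46.7. On the large chip the medians of Mt1, Mt2 and Slc39a14 were 137, 5.93 and 4.46 in 16 cells at 50% or more, against 767, 120 and 46.4 in 64 cells under 50%. The medians of all 3 genes were lower at 50% or more on each chip, and the ranges overlapped on all of them. The cells at 50% or more also had fewer genes above 0, and the part of RNA content and of capture in these differences was not tested.

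Spearman rho with the spike-in share was -0.56, -0.63 and -0.16 for Mt1 on the small, medium and large chip, -0.54, -0.45 and -0.22 for Mt2, and -0.41, -0.41 and -0.24 for Slc39a14. Within the 64 large-chip cells under 50% the sign turned, with rho of 0.22, 0.20 and 0.15 for Mt1, Mt2 and Slc39a14. The number of mouse genes above 0 moved with the spike-in share, and with it held constant the mean rho over chips was -0.09 for Mt1, 0.02 for Mt2 and 0.15 for Slc39a14. In cells under 10%, of which the small and medium chips hold 4 each and the large chip 57, the chips lay closer together. There the log2 ratio of means was 0.04 for Mt1, 0.34 for Mt2 and 0.69 for Slc39a14 between the small and the large chip, and 0.44, 0.29 and 0.31 between the medium and the large chip. Cell 15 of the small chip, one of these 8, had 0.33 for Mt2 beside 111 for Mt1, and the other 7 had 123 to 247 for Mt2.

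Mt2 was missing from few of the large-chip cells under 50%. It was at 0 in cells 24, 75, 53 and 7, which had spike-in shares of 29.8 to 40.99% and Mt1 values of 149.6 to 3211. No large-chip cell under 10% was at 0 for any of the 3 genes. In these 57 cells Mt1 had a lowest value of 66.7, a median of 799 and a highest of 3322, Mt2 had 1.39, 125 and 451, and Slc39a14 had 3.03, 45.6 and 175.

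In the 57 large-chip cells under 10% the coefficient of variation, the SD over the mean, was 0.63 for Mt1, 0.62 for Mt2 and 0.58 for Slc39a14. The median over 1352 genes with a mean of at least 100 in those cells was 0.49, and 76.4% and 74.2% of them varied less than Mt1 and Mt2. Slc39a14 had a mean of 50.6 in these cells, below that limit, so it is not ranked among them. On the log2 scale the SD was 1.06 for Mt1, 1.33 for Mt2 and 0.97 for Slc39a14, against a median of 0.76. Mt2 had the widest spread of the 3 on this scale, and its lowest value, 1.39, was in cell 37 of the large chip, which also had the lowest Mt1. In all 64 cells under 50%, where 7 cells hold a larger summed value, the coefficient was 0.79 for Mt1, 1.30 for Mt2 and 1.48 for Slc39a14, against a median of 1.15 over 1757 genes. Without the 9 of these cells with markers of another type it was 0.69 for Mt1, 0.70 for Mt2 and 0.61 for Slc39a14 over 55 cells, and the cells left out include 71 and 24 of the large chip.

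Mt1 and Mt2 varied together over single cells. Spearman rho between them was 0.70 over 39 small-chip cells, 0.39 over 30 medium-chip cells and 0.74 over 80 large-chip cells (mean 0.61 ± 0.19, SD over 3 chips). Among the cells under 50% spike-in it was 0.82, 0.67 and 0.75 on those chips, over 12, 7 and 64 cells. Without the 19 cells with markers of another type it was 0.71, 0.50 and 0.78. With the column order held constant it was 0.70, 0.28 and 0.73, and with the number of genes above 0 held constant it was 0.55, 0.10 and 0.73. The pair thus kept its value on the large chip in each of these settings, while on the medium chip, where 13 of 30 cells had Mt2, it ran from 0.10 to 0.67. All cells of a chip share its library preparation, and detection of both genes goes with the number of genes read.

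Slc39a14 had a weaker relation with the metallothioneins. Its rho with the mean of log2(value + 1) of Mt1 and Mt2 was 0.40, 0.34 and 0.38 on the small, medium and large chip (mean 0.38 ± 0.03, SD over 3 chips). With the number of genes above 0 held constant it was 0.17, -0.11 and 0.32. In cells under 50% it was 0.55, 0.71 and 0.16 over 12, 7 and 64 cells of those chips, and in the large-chip cells under 10% it was 0.23 over 57 cells. In those 64 cells 79.8% of genes measured had a lower rho with the metallothionein mean than Slc39a14 had. The separate values there were 0.11 with Mt1 and 0.15 with Mt2.

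**Figure D2:**
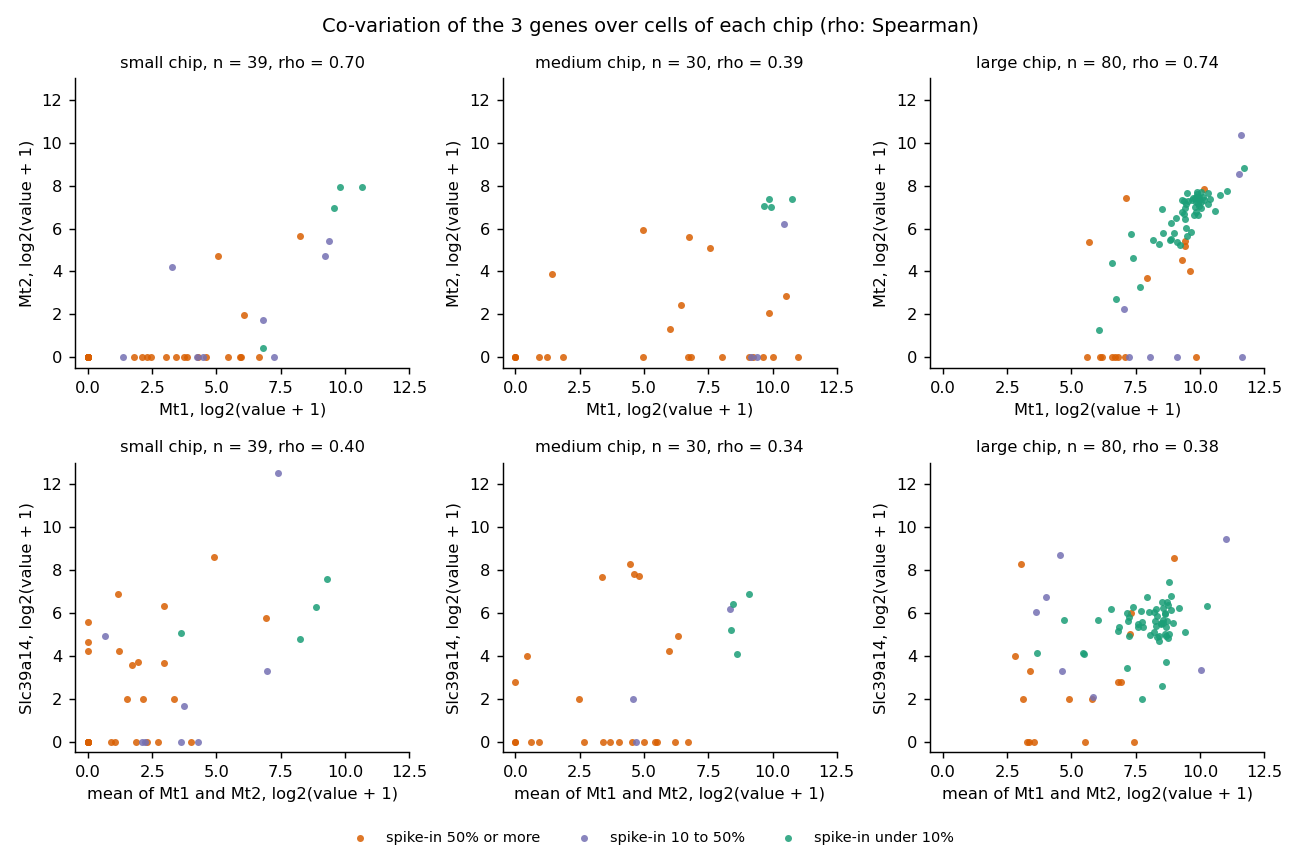
Each point is a cell, with Mt2 against Mt1 (top) and Slc39a14 against the mean of both metallothioneins (bottom), on the log2(value + 1) scale, for the small, medium and large chip and coloured by spike-in share. The large-chip cells under 10% form a diagonal in the top row (rho 0.74 over all 80 cells). They form a round cloud in the bottom row (rho 0.38 over all 80 cells and 0.23 over the 57 cells under 10%).

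The order of the columns in the table is not explained by the labels, so landmark genes of the lobule were set beside it. On the large chip Cyp2e1, a pericentral cytochrome P450, had a rho of 0.86 with the column order, and Cyp2f2, a periportal one, had -0.81. A score of 6 pericentral minus 6 periportal landmark genes had a rho of 0.82, 0.91 and 0.94 with it on the small, medium and large chip. WaveCrest, named with the deposited values, is a method for ordering cells. The order may thus have been built from these same values, which the labels do not say. A rho with it is therefore no independent evidence of position in the lobule. The table thus runs from Cyp2f2-rich to Cyp2e1-rich cells, and 9 of the 16 large-chip cells with a spike-in share of 50% or more fall in bin 3 when that chip is cut into 5 equal bins along the order.

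Along that order both metallothioneins were lowest in the last, Cyp2e1-rich bin. In the 57 large-chip cells under 10% the medians of Mt1 from the first to the last of 5 bins were 714, 958, 1050, 628 and 290. Those of Mt2 were 134, 168, 161, 76.5 and 45.1, and those of Slc39a14 were 39.6, 68.2, 48.9, 47.2 and 35. Both metallothioneins had their highest median in bin 2 or bin 3, and Slc39a14 in bin 2. In the last bin Mt2 ran from 1.39 to 56.8 in 11 cells, against 38.5 to 198 in 12 cells of the first bin, and Mt1 from 66.7 to 799, against 337 to 1517. The groups overlapped for each gene, least for Mt2. The log2 ratio of the median of the last to that of the first bin was -1.30 for Mt1, -1.55 for Mt2 and -0.17 for Slc39a14. Without the 5 of these cells with markers of another type it was -1.34, -1.56 and -0.49. Over the same 57 cells the spike-in share had a rho of -0.61 with the column order, the summed value of the 8 hepatocyte markers -0.64 and that of 7 cholangiocyte markers -0.63. The summed hepatocyte markers had a rho of 0.68 with Mt1, 0.83 with Mt2 and 0.23 with Slc39a14, and the summed cholangiocyte markers 0.46, 0.62 and 0.16. Their part in the pattern along the order was not tested.

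The balance of the pair also varied along the order. The median ratio of Mt1 to Mt2 within a cell was 5.42 in the first bin, 6.19, 6.94 and 8.77 in the next bins and 9.34 in the last. The log2 ratio of Mt2 to Mt1 had a rho of -0.46 with the column order over these 57 cells. Over the cells under 50% this rho was -0.50, -0.50 and -0.33 on the small, medium and large chip. Over all cells it was 0.08, 0.25 and -0.19, where cells at 0 for Mt2 count in full.

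**Figure D3:**
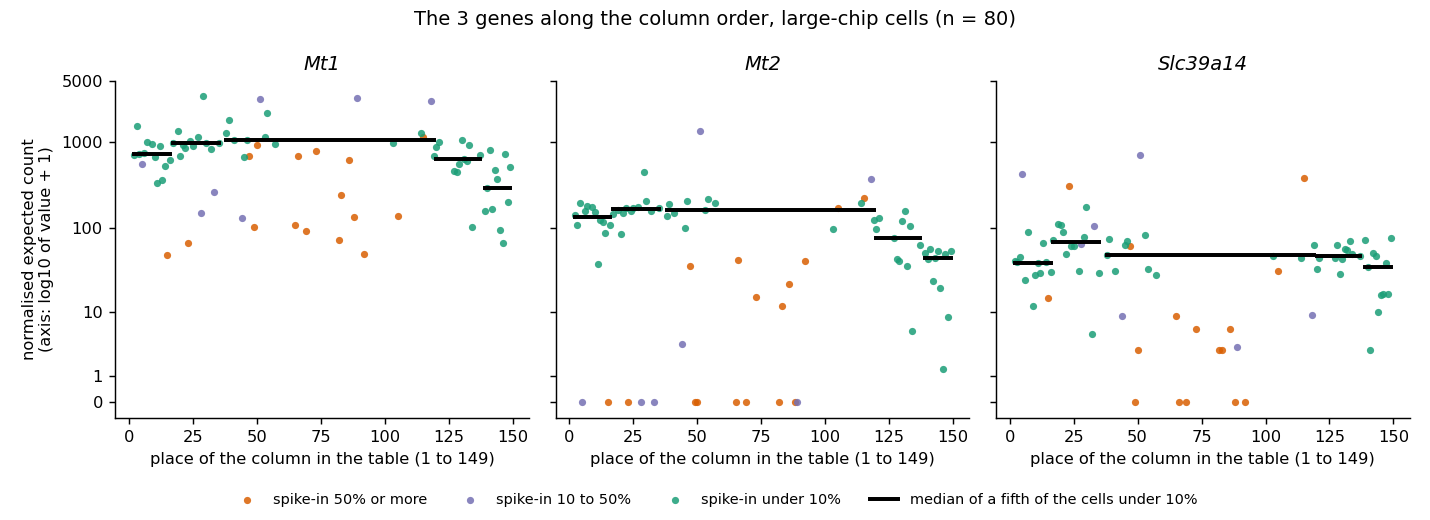
Normalised expected count (y axis on a log10 scale of value + 1) of the 3 genes in 80 large-chip cells against the place of the cell's column in the table, with colours for the spike-in share and black bars for the median of each of 5 bins of the 57 cells under 10%. The bars of Mt1 and Mt2 end lowest in the last bin, at 290 and 45.1, and those of Slc39a14 lie between 35 and 68.2.

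Over all cells of a chip the rho with the column order was -0.20, -0.48 and -0.24 for Mt1 on the small, medium and large chip, -0.07, -0.34 and -0.28 for Mt2, and -0.21, -0.27 and -0.18 for Slc39a14. Over the 64 large-chip cells under 50% it was -0.30 for Mt1, -0.41 for Mt2 and -0.17 for Slc39a14. A rho of 0.3 or more in size is used as a mark here and in the lists, which only says how large a rho is. Of 9942 genes measured, those above 0 in at least 20% of these cells, 6.4% had a rho of -0.3 or lower with the column order and 3.93% had 0.3 or higher. Mt1 and Mt2 both passed on the low side, Mt1 narrowly, and Slc39a14 did not. With the number of genes above 0 held constant Mt1 had -0.27 and Mt2 -0.39, and with the spike-in share held constant they had -0.23 and -0.36, so Mt1 no longer passed. In the cells under 10% the values were -0.41, -0.58 and -0.11. On the medium chip the sign for Mt1 and Slc39a14 turned in the 7 cells under 50%, to 0.11 and 0.21.

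The landmark score gave a similar picture. Its rho was -0.09, -0.53 and -0.26 with Mt1 on the small, medium and large chip, -0.16, -0.29 and -0.27 with Mt2, and -0.22, -0.19 and -0.24 with Slc39a14. In the large-chip cells under 10% it was -0.46, -0.62 and -0.16. The score and the column order share most of their information, as their rho above shows.

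The genes closest to the metallothioneins were those of fibrinogen, the soluble precursor of clots that hepatocytes secrete. Over the 64 large-chip cells under 50% and among 6600 genes with a mean of at least 10, the highest rho with the metallothionein mean was that of Fgb (0.74), followed by Fgg (0.70), Fga (0.68), Serpina1a (0.62), which encodes an alpha-1-antitrypsin, and Tgoln1 (0.61), which encodes a protein of the trans-Golgi network. Fgb ran from 3743 to 37889 in these cells with a median of 22685. With the column order held constant the values of Fgb, Fgg and Fga were 0.69, 0.63 and 0.61, and in the cells under 10% they were 0.83, 0.78 and 0.83. Over all cells of the small and the medium chip they were lower, 0.38, 0.28 and 0.34 on the small chip and 0.65, 0.58 and 0.60 on the medium chip. Without the cells with markers of another type they were 0.82, 0.76 and 0.81 over 55 large-chip cells.

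At the other end stood genes of pericentral cells. The lowest rho was that of Mup17 (-0.60), followed by Cyp2c29 (-0.59), Cyp2c37 (-0.57), Mgst1 (-0.57) and Mup2 (-0.56). Mup genes encode the major urinary proteins, Cyp2c genes cytochromes P450 and Mgst1 a microsomal glutathione transferase. All 5 had a rho between 0.65 and 0.87 with the column order. With that order held constant they had -0.50, -0.51, -0.52, -0.45 and -0.44. Mup2 and Mgst1 had a rho of the opposite sign, 0.45 and 0.27, over all small-chip cells and 0.58 and 0.45 over all medium-chip cells, and -0.10 and -0.09 over all large-chip cells. Mup17, Cyp2c29 and Cyp2c37 had -0.30, -0.02 and 0.04 on the small chip and -0.03, -0.18 and 0.09 on the medium chip. The Mup, Cyp2c and Serpina1 families hold near-identical copies, between which reads may have been split, so their values are uncertain.

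Slc39a14 had other neighbours. In the same cells its highest rho was with Mat1a (0.55), the liver enzyme that makes S-adenosylmethionine, Selenbp1 (0.54), a selenium-binding methanethiol oxidase, Hspa5 (0.51), the main chaperone of the endoplasmic reticulum, Lcp1 (0.50), an actin-bundling protein best known from leukocytes, and Col18a1 (0.49), a collagen of basement membranes. Hspa5 had 0.35 with the metallothionein mean, while Mat1a and Selenbp1 had -0.03 and 0.02. In the cells under 10% the values with Slc39a14 were 0.38, 0.39, 0.49, 0.40 and 0.31. Over all cells they were 0.37, 0.33, 0.43, 0.01 and 0.30 on the small chip and 0.31, 0.46, 0.07, 0.29 and 0.58 on the medium chip, so Lcp1 on the small chip and Hspa5 on the medium chip were near 0. The lowest values were those of Golga7 (-0.39), Lztfl1 (-0.38), Psmd14 (-0.35), Timm23 (-0.35) and Ptprb (-0.34). Ptprb is an endothelial phosphatase and was above 0 in 37.5% of these cells, and its rho was -0.25 without the cells with markers of another type. Golga7, Lztfl1, Psmd14 and Timm23 had values of 0.32, 0.28, 0.29 and 0.44 over all small-chip cells, the opposite sign.

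**Figure D4:**
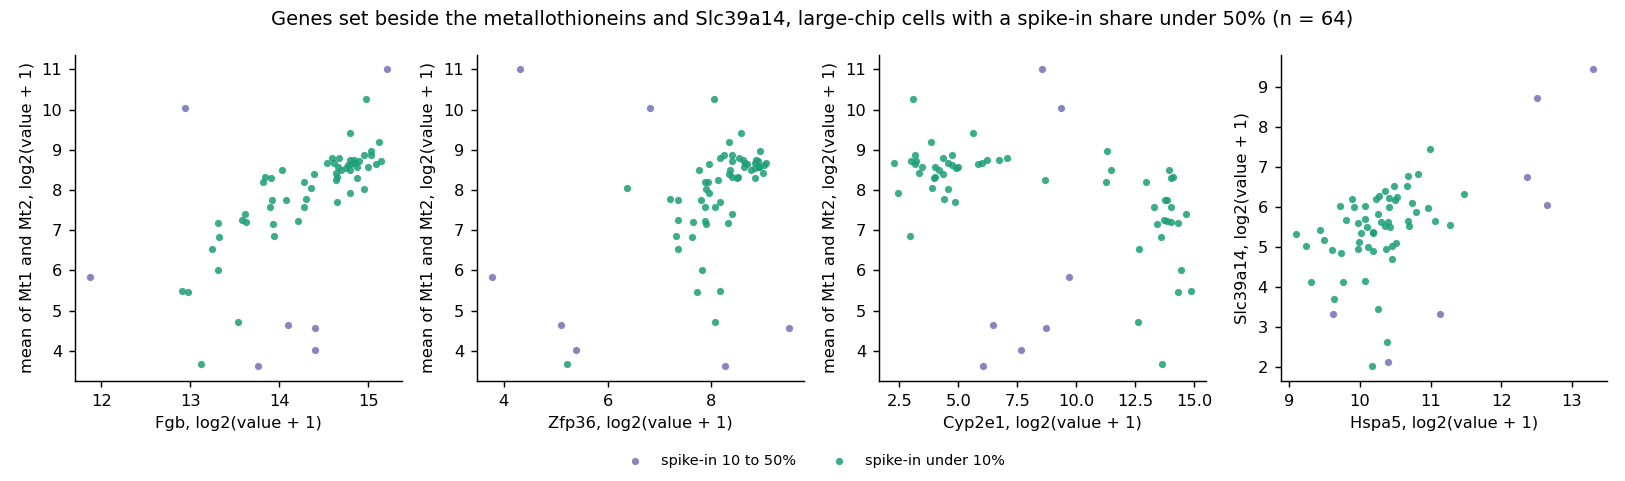
Metallothionein mean against Fgb, Zfp36 and Cyp2e1, and Slc39a14 against Hspa5, in 64 large-chip cells with a spike-in share under 50%, all on the log2(value + 1) scale, with colours for a share under 10% and from 10 to 50%. The cells under 10% lie along a line for Fgb (rho 0.83 among them), and the 7 other cells lie apart from it for several genes.

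In the large-chip cells under 50%, other members of the families of zinc importers and exporters did not move with the metallothioneins past the mark. Of 14 Slc39a genes, which bring zinc into the cytosol, and 10 Slc30a genes, which carry it out, 9 and 7 were above 0 in at least 20% of the 64 large-chip cells under 50%. Of the 9 importers, Slc39a14 among them, none had a rho of 0.3 or more in size with the metallothionein mean (median 0.13, range -0.13 to 0.25), and of 7 exporters none did (median 0.02, range -0.19 to 0.25). The median over all genes measured was 0.03, and 4.56% of 9940 genes had 0.3 or higher and 1.82% had -0.3 or lower. With Slc39a14 itself, the 8 other importers had a median of 0.12 and 7 exporters a median of 0.05, none of them past the mark. In the cells under 10% Slc30a6, an exporter of the Golgi, had -0.31 with the metallothioneins, and without the cells with markers of another type Slc39a1 had 0.31. Over all cells of the small, medium and large chip Slc30a1 had 0.56, 0.50 and 0.47 with the metallothioneins. Slc39a1 had 0.44, 0.59 and 0.42 there, and Slc30a10 0.24, 0.32 and 0.02. Over all large-chip cells 29.4% of genes had 0.3 or higher.

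The highest of the importers with the metallothioneins was Slc39a1 (0.25), and the highest of the exporters was Slc30a1 (0.25), a plasma membrane exporter that MTF1 is known to regulate. Slc30a1 was above 0 in 59 of 64 cells with a median of 17.7, and Slc39a1 in 63 with a median of 43. Slc39a8, the importer closest to Slc39a14 in sequence, was above 0 in 47 cells, and its rho was -0.15 with Slc39a14 and 0.13 with the metallothioneins. Slc39a4, the intestinal zinc importer, had 0.26 with Slc39a14 and 0.14 with the metallothioneins. Slc30a10, a manganese exporter, had 0.05 with Slc39a14, the importer of the same metal. Slc30a2 and Slc30a3 were at 0 in all 149 cells, and Slc39a12 was above 0 in 1 of them. Slc39a2, Slc39a3, Slc39a5, Slc39a6 and Slc30a8 were above 0 in 1 to 12 of the 64 cells and were not measured for rho.

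Mtf1 and 6 genes listed as its targets gave a similar count. Of the 6 of these measured, none passed the mark with the metallothionein mean (median -0.10), and 1, Gclc, which encodes a subunit of the enzyme that starts glutathione synthesis, had 0.33 with Slc39a14. Mtf1 had 0.06 with the metallothionein mean and -0.03 with Slc39a14, at a median value of 4.04. Of 9 copper genes, Cp, the copper carrier ceruloplasmin of plasma, was the only one past the mark with the metallothioneins (0.36), and its value was 0.18 with the column order held constant. Cp had 0.43 with Slc39a14, and Cox17, a copper chaperone of mitochondria, had 0.32, and in the cells under 10% these were 0.29 and 0.10, inside the mark. Over all genes, 4.56% had 0.3 or higher with the metallothionein mean and 3.86% with Slc39a14.

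Secreted acute phase proteins passed too, though in smaller share than the hepatocyte markers listed. Of 8 such markers, 6 had a rho of 0.3 or more with the metallothionein mean (median 0.37) and 1, Cyp2e1, had -0.3 or lower. With the column order held constant 2 had 0.3 or more, where 2.72% of all genes did. With Slc39a14, and no order held constant, 4 of 8 had 0.3 or more (median 0.30), where 3.86% of all genes did. Of 25 genes of the interleukin-6 acute phase response, 7 had 0.3 or more with the metallothionein mean and none -0.3 or lower. The median of the 25 was 0.18 against 0.03 over all genes, of which 4.56% had 0.3 or higher. These 7 were the 3 fibrinogen chains, Hp (0.50), the haemoglobin scavenger haptoglobin, Fgl1 (0.43), a fibrinogen-like protein, Orm1 (0.34), an orosomucoid, and Itih4 (0.32), an inter-alpha-trypsin inhibitor chain. In the cells under 10% there were 10, where 6.74% of all genes had 0.3 or higher. With the column order held constant there were 5 of 25, where 2.72% of all genes passed. The serum amyloid genes Saa1 and Saa2 had 0.20 and 0.18, the iron hormone Hamp had 0.10, and Stat3, the factor that carries the interleukin-6 signal, had 0.27. Saa4 had -0.21. Among the cells under 10% Saa1 had 0.38 and was past the mark, while Saa2 had 0.19.

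Immediate early genes, which are switched on within minutes of a stimulus and also by dissociation of tissue, were past the mark in larger number. Of 14 measured, 8 had 0.3 or more with the metallothionein mean (median 0.33), where 4.56% of all genes did. They were led by Zfp36 (0.48), which encodes an mRNA-decay factor, Jun (0.47), a subunit of AP-1, and Btg2 (0.43), an antiproliferative factor. In the cells under 10% there were 9, where 6.74% of all genes passed. With the column order held constant there were 6, where 2.72% did. With Slc39a14 they numbered 2 of 14 (median 0.05), Ier2 (0.31) and Atf3 (0.30), where 3.86% of all genes passed. The column order had a rho of -0.46 with Zfp36, -0.42 with Jun and -0.43 with Btg2, the same sign as for Mt1 and Mt2. Of 12 genes of the glucocorticoid response, 4 passed with the metallothioneins (median 0.20), where 4.56% of all genes did. They were Tat (0.41), Pck1 (0.33), Dusp1 (0.32) and G6pc (0.31). Tat, Pck1 and G6pc had a rho of -0.59, -0.78 and -0.63 with the column order, and with that order held constant they had 0.25, 0.06 and 0.10 with the metallothioneins. Fkbp5, Tsc22d3 and Per1, other targets of the receptor, did not pass, but in the cells under 10% Tsc22d3 had 0.37. Dusp1 is in both lists.

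Fewer genes of the other stress lists passed, and these lists are small. Over all genes 4.56% passed on the high side and 1.82% on the low side. Of 14 NRF2 genes, Gpx1 (0.37) and Osgin1 (0.35) passed on the high side and Nqo1 (-0.33) on the low side. Of 14 genes of stress in the endoplasmic reticulum, Herpud1 (0.39) and Hspa5 (0.35) passed, and of 10 heat shock genes Hspa8 (0.31) did. None of 10 iron genes passed with the metallothioneins. With the column order held constant none of the NRF2, endoplasmic reticulum and heat shock genes passed on the high side, where 2.72% of all genes did.

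All 6 pericentral landmarks were past the mark on the low side with the metallothioneins (median -0.37, from -0.51 for Cyp2e1 to -0.31 for Glul), and 4 of 6 periportal landmarks were past it on the high side (median 0.34), with Cyp2f2 at 0.59. With Slc39a14 none of the pericentral landmarks passed (median -0.15), and Pck1 (0.37) and Asl (0.36) of the periportal ones did. With the column order held constant the pericentral median with the metallothioneins was -0.19 and 2 of 6 passed on the low side, Cyp2e1 (-0.39) and Gulo (-0.34). The periportal median was then 0.05 and 1 of 6 passed, Cyp2f2 (0.49). Of all genes, 1.82% passed on the low side and 4.56% on the high side with the metallothioneins. With the column order held constant 0.97% and 2.72% did. With Slc39a14, 3.86% of all genes passed on the high side. With Slc39a14, Pck1 and Asl had 0.15 and 0.16 in the cells under 10%, inside the mark.

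Of all genes, 3.86% of 9941 had a rho of 0.3 or higher with Slc39a14 and 0.342% had -0.3 or lower, with a median of 0.05. Of the 25 acute phase genes 7 passed on the high side (median 0.18), led by Itih3 (0.46), Orm1 (0.45) and Itih4 (0.44). In the cells under 10% 5 of 25 did, where 1.58% of all genes passed, and without the cells with markers of another type 4 did, where 3.33% of all genes passed. Of 14 genes of stress in the endoplasmic reticulum Hspa5 (0.51) and Ddit3 (0.32), a transcription factor of that response, passed, and both did so in the cells under 10% too (0.49 and 0.31). Cat (0.45), the catalase of peroxisomes, and Gclc (0.33) passed among NRF2 genes, Hspe1 (0.41) and Hsp90aa1 (0.39) among heat shock genes, and Tat (0.42), Pck1 (0.37) and G6pc (0.30) among glucocorticoid genes. None of these 7 passed in the cells under 10%, where Cat and Gclc had 0.29 and 0.14, Hspe1 and Hsp90aa1 0.26 and 0.19, and Tat, Pck1 and G6pc 0.29, 0.15 and 0.18. Of the iron genes, Trf (0.38), which encodes the transferrin of plasma, was past the mark, with 0.27 in the cells under 10%, while Slc11a2, another importer of iron, had 0.07 and the ferritin chains Fth1 and Ftl1 had 0.20 and 0.00.

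**Figure D5:**
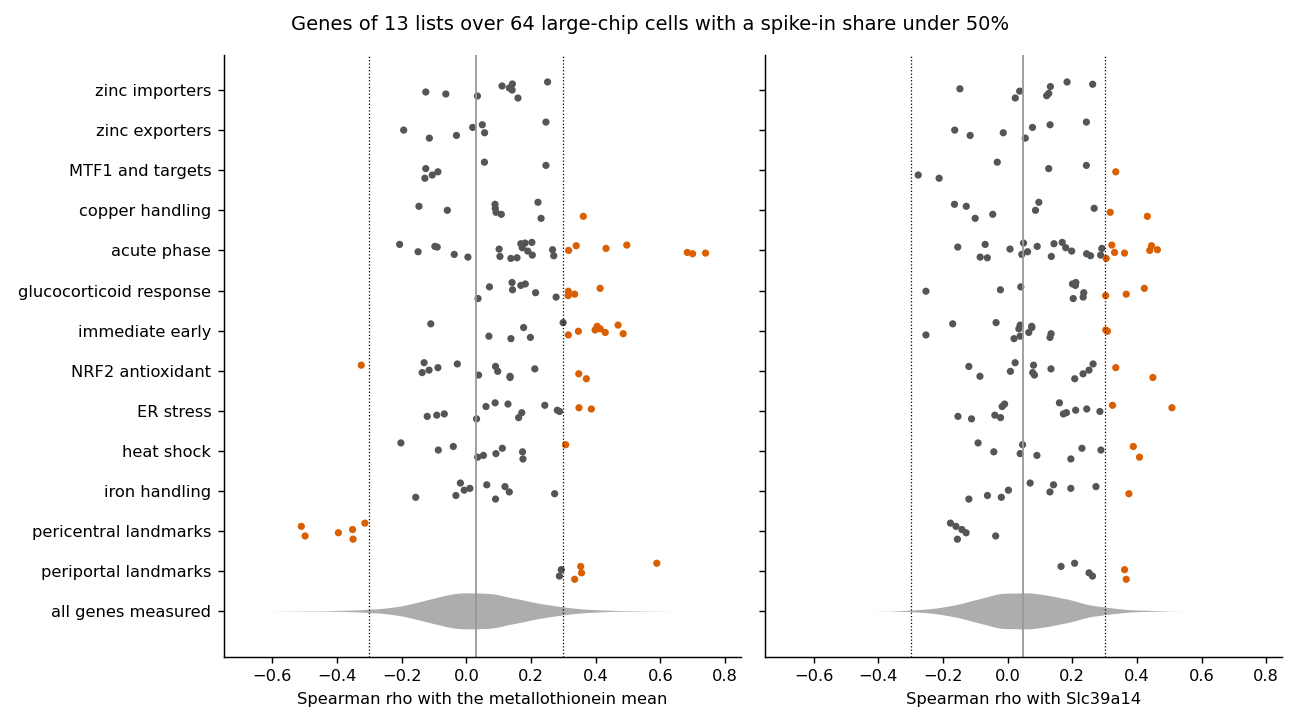
Spearman rho of the genes of 13 lists with the metallothionein mean (left) and with Slc39a14 (right) over 64 large-chip cells, each point a gene, with orange for 0.3 or more in size, dotted lines at that mark, and the grey shape and line for all genes measured and their median. Fibrinogen chains lie farthest right in the left panel, at 0.68 to 0.74, and zinc importers and exporters stay inside the dotted lines in both.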

How the data were processed

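Cells were isolated, captured and sequenced by the authors, and each cell is 1 labelled sample. The deposited signal values are normalised expected counts with 2 decimals. The submitters' processing notes name CASAVA 1.8.2, Bowtie 0.12.9, RSEM 1.2.3 and mm10, with no role or order. The deposited file is named after SCnorm (normalisation) and WaveCrest (ordering of cells), on which the labels are silent. Read depth is not given in the sources used here, so no interval on a value rests on it, and shares of cells carry exact Clopper-Pearson intervals. All columns were mapped to labelled cells. From the values were computed the spike-in share (percent of a cell's summed value in 92 ERCC entries), Spearman rho within each chip, first-order partial rho, log2 ratios of means with a pseudocount of 1, and medians over 5 bins of the column order, with Python 3.11.15, numpy 2.4.6, pandas 2.3.3 and scipy 1.17.1. Landmark scores subtract the average z-score (log2(value + 1), within a chip) of 6 periportal from that of 6 pericentral genes. Lists were read over large-chip cells with a spike-in share under 50% against all genes above 0 in at least 20% of them (9942), and Cebpd and Adgre1 were not matched. The rho code was tested on simulated data. Named genes are the members, all metallothioneins and zinc transporters, the 5 highest and 5 lowest in rho among genes with a mean of at least 10, and up to 3 past the mark in each other list, and genes named beyond these were chosen after their values were seen. The members and lists were chosen with earlier results of these data known. The limit of 10%, the cells with markers of another type, the small chip without cell 25, and rho with the column order or the spike-in share held constant were added after the data were seen. Positions come from GENCODE M21 and promoter sequences from RefSeq (GRCm38.p6, 32851 windows). Cells of 1 chip share a library preparation, and their spread is not one between animals.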

Additional observations from a re-analysis of the deposited data

How the results depend on the processing

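Among recomputed values of the main results, 140 were counted as kept, 49 as moved and 14 changed sign. A rho counted as kept when its sign held and it shifted by less than the SD over the chips. A ratio or count did so within 1.5 times, and a share of cells within its interval. That SD was 0.19 for Mt1 with Mt2 and 0.03 for Slc39a14 with the metallothioneins. All 10 settings of Mt1 with Mt2 counted as kept. Among them was a mean rho of 0.46 with genes above 0 held constant, against 0.61. The limits were thus unlike, and these counts do not compare the pairs. The cause of each shift was not tested. The mean rho of Slc39a14 with the metallothioneins was 0.46 as Pearson r, 0.30 rescaled to the mouse-gene sum, 0.48 in cells with a spike-in share under 50%, 0.13 with genes above 0 held constant, 0.33 with the column order held constant, 0.42 without cells with markers of another type, and 0.23 in large-chip cells under 10%. For spike-in share, column order and landmark score, values under 10% come from the large chip alone and the others are means over chips. With the spike-in share, Mt1 had -0.19 under 50%, -0.085 with genes above 0 held constant and 0.30 under 10%. On the large chip alone Mt1 had 0.22 under 50%. Mt2 had -0.61 as Pearson r, 0.020 with genes held constant and 0.47 under 10%, and Slc39a14 had 0.15 and 0.16 in these last settings. With the column order, Mt1 had -0.41 under 10%, Mt2 had -0.46 under 50% and -0.58 under 10%, and Slc39a14 had -0.17, -0.14 with genes held constant and -0.11 under 10%. With the landmark score, Mt2 had -0.45 under 50% and -0.62 under 10%, and Slc39a14 had -0.19 as Pearson r, -0.16 rescaled, -0.13 under 50%, -0.13 with genes held constant and -0.16 under 10%.

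The log2 ratio of the small to the large chip was -1.12 for Mt1, -1.19 for Mt2 and 3.00 for Slc39a14 in cells under 50%, -5.58, -6.63 and -3.47 from medians, and 0.039, 0.34 and 0.69 under 10%. Without cell 25 of the small chip it was -1.01 for Slc39a14. That of the medium to the large chip was 0.19 for Mt1 and -0.49 for Mt2 under 50%, -1.62, -6.63 and -4.14 for the 3 genes from medians, and 0.44, 0.29 and 0.31 under 10%. Rescaled to the mouse-gene sum it was 0.26 for Slc39a14. The median ratios of Mt2 rest on medians of 0 plus the pseudocount. At a value of at least 10, Mt1 was found in 53.85% of small-chip cells and Slc39a14 in 78.75% of large-chip cells.

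Of all genes, 2834 were past the mark on the high side and 9 on the low side with the metallothioneins over all large-chip cells, against 453 and 181 in cells under 50%. The low side held 116 among genes above 0 in at least 50% of cells and 368 under 10%, and with the column order held constant the counts were 270 and 96. With Slc39a14 they were 384 and 34 in cells under 50%, and 1056 and 133 by Pearson r, 3211 and 0 over all large-chip cells, and 157 and 76 under 10%. The low side held 21 among genes above 0 in at least 50% of cells and 62 among genes above 0 in at least 1 cell. Of the counts for single lists, 391 stayed within 1.5 times and 77 did not.

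No paired analysis was possible because the replicate numbers only name cells and no test was made. The settings under 10%, without cells with markers of another type, without cell 25, and with the column order or the spike-in share held constant were chosen after seeing the data. With 1 mouse and 1 chip of each size, trap size cannot be told apart from chip, and read depth is unknown, so a value of 0 does not show that a gene was absent.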
